A study of Mus musculus with 11 samples.

Results

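Astrocytes of the hippocampus (HC) were compared with those of the cortex (CX) over all genes, using the 3 HC and 2 CX libraries among the 11 of the series. Libraries were chosen by the region in their titles. Each was made from C57BL/6 mice of 16 weeks, with no treatment named, that carry the Aldh1l1-eGFP BAC transgene, in which the Aldh1l1 promoter drives green fluorescent protein, and fluorescent cells were collected by FACS after dissociation of the tissue. Whole-transcriptome libraries were built from total RNA, with depletion of ribosomal RNA. The 3 olfactory bulb (OB) and 3 brainstem (BS) libraries of the series entered no test here and are quoted only as levels. A sort on this transgene keeps any cell in which its promoter is active, and the sources used here do not say how many mice stand behind a library or whether replicates came from separate mice, so that p-values measure only the spread between these libraries, which may be technical. Both sexes were used in the study.

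Astrocytes clear glutamate and potassium around synapses, supply neurons with lactate and cholesterol, and secrete proteins that start, mature or remove synapses. HC and CX both derive from the dorsal telencephalon, whose astrocytes come from radial glia that carry shared patterning factors, and the HC lies beside the lateral ventricle with its choroid plexus. The choroid plexus is an epithelium that makes cerebrospinal fluid, and ependymal cells are the ciliated lining of the ventricles.

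The deposited values are read counts divided by 1 size factor per library and are called normalized counts below. Between 5543804 and 14151670 reads were counted in the HC libraries, and 5596128 and 4306813 in the CX libraries. A single read was worth 0.367 to 0.913 normalized counts in the HC and 1.26 or 1.53 in the CX. Reads of Rn45s, the 45S ribosomal RNA precursor, made up 0.966% to 2.36% of all reads in the HC and 20.7% and 18.96% in the CX, so that this measure separated the regions completely. In the BS they made up 18.0% to 25.6%. HC 1 was the only HC or CX library with reads of the Y-linked gene Ddx3y (680 normalized counts against 0 in the 4 others), and it had the highest sum over 30 immediate early and dissociation genes, at 10086 normalized counts. That sum was 2831 and 1250 in HC 2 and HC 3, and 2524 and 3261 in the CX. The part of these differences in the results was not tested.

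Of the choroid plexus genes tested 35 of 38 were called higher in the HC, and of the ependymal genes 13 of 26. Toward the CX, 8 of 30 cholesterol and lipid genes and 5 of 19 matrix genes were called. With the median of the astrocyte markers set equal in every library these counts were 0 and 1. The largest difference toward the HC was Ttr (transthyretin) at a log2 difference of 5.44, and the largest toward the CX was the entry Mir6236 at -5.36. Dmrt3, Hopx, Gfap and C4b were higher in the HC, and Chrdl1, Car8, Gfra1 and Gabbr2 in the CX. A gene was called at an unadjusted limma p below 0.01, a fold above 1.5 and more than 5 normalized counts in 2 or more libraries of one region. The p and the fold are the limits that the study used with DESeq2, whereas its limit on level is in RPM (reads scaled to a fixed library total), on which scale 5 normalized counts are 0.711 to 1.08. With a limit of 5 RPM in its place, chosen after seeing the data, 672 genes were called. Of 12745 genes tested, 704 were called (5.52%), 410 of them higher in the HC (3.22%) and 294 higher in the CX (2.31%). With a Benjamini-Hochberg adjusted p below 0.05 in place of the unadjusted one, 236 genes were called (1.85%), of which 172 lay toward the HC (1.35%) and 64 toward the CX (0.502%).

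The calls toward the CX depended on both of its libraries. Without CX 1 the total fell from 704 to 386 and the calls higher in the CX from 294 to 82, and without CX 2 these came to 482 and 95, with the lone CX library assumed to vary like the HC libraries. A set of 180 HC calls and 44 CX calls stood in each fit that left out 1 library. Of the 141 called genes to which the naming rule applied, 74 kept their call in each of these fits, while 55 lost it without CX 1, 45 without CX 2, and 18, 25 and 15 without HC 1, HC 2 and HC 3. Every HC library lay above both CX libraries in 1904 of the genes tested (14.9%), and both CX libraries lay above every HC library in 2124 (16.7%). All 15 astrocyte markers were tested, and 14 of them lay lower in the HC, with a median log2 difference of -0.51 where that of all genes tested was 0.00. The summed level of these markers was 328445, 549384 and 555628 normalized counts in HC 1 to HC 3, below the 743714 and 659681 of CX 1 and CX 2 in every pairing. In a scaling chosen after seeing the data, which set the median of these markers equal in every library, the median of all genes moved by 0.34, and 731 genes were called higher in the HC (5.74%) and 66 higher in the CX (0.518%). All 410 HC calls were among the former and 66 of the 294 CX calls among the latter. In sorted bulk samples a larger share of a cell type and more of its RNA per cell cannot be told apart, which holds for every list below.

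**Figure D1:**
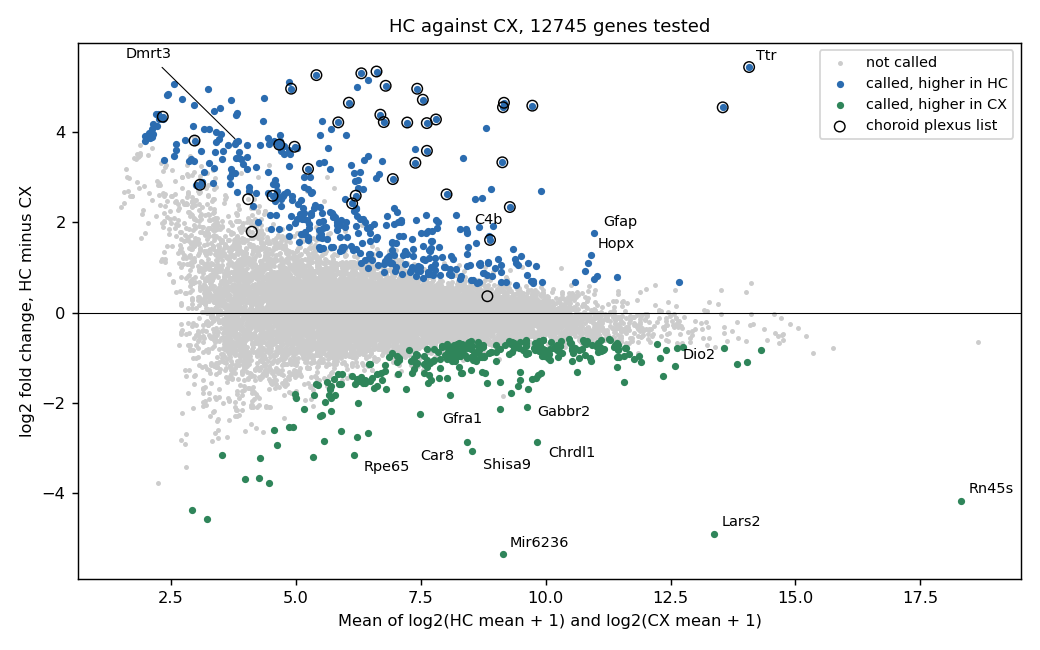
Log2 difference between HC and CX (HC minus CX, from log2(normalized count + 1)) against the mean log2 level of the regions for each of the 12745 genes tested. Blue points are the 410 genes called higher in the HC, green points the 294 called higher in the CX, grey points the rest, and circles the choroid plexus list, which lies almost wholly among the highest differences.

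Distances between libraries were of like size within and between regions. The root mean square log2 difference was 0.818 to 1.00 among the HC libraries, 0.879 between the CX libraries and 0.950 to 1.22 between an HC and a CX library. The mean distance between regions was 1.19 times the mean distance within them. Single values cannot be tested by permutation here, since the 10 ways of assigning 5 libraries to 3 and 2 allow a two-sided p no smaller than 0.2.

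Among the dorsal telencephalic patterning factors, 3 of 20 tested were called higher in the HC and 2 higher in the CX, beside 3.22% and 2.31% of all genes. Their median log2 difference was -0.19. The difference of largest size was that of Dmrt3, a DM-domain transcription factor of the developing medial pallium, which lies at chr19:25610301-25623921 of GRCm38 on the plus strand. It had 65.6, 44.8 and 46.6 normalized counts in HC 1 to HC 3 against 2.51 and 3.07 in the CX, and 0 in all BS and OB libraries. Every HC library thus stood far above both CX libraries, which held 4 reads between them. The log2 difference was 3.80 (SE 0.64, adjusted p = 0.0121 from limma, as for all adjusted p-values below). Against so few reads a fold depends on the pseudocount, and the Dmrt3 log2 fold change was 4.10 with a pseudocount of 0.25 and 2.86 with one of 5. Hopx, a homeodomain protein without DNA binding that is known from dentate gyrus stem cells, had 2086, 3474 and 3481 in the HC against 1312 and 1121 in the CX. Its log2 difference was 1.27 (SE 0.24, adjusted p = 0.0212), and its HC libraries also lay above every BS library. Nr2f2 (COUP-TFII), an orphan nuclear receptor, was 442, 301 and 332 in the HC and 172 and 176 in the CX, a log2 difference of 1.02 (adjusted p = 0.0559) whose call was lost without CX 1 at a log2 difference of 1.00.

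Tbr1 and Meis2 went the other way. Tbr1, a T-box factor of early-born cortical neurons, had 94.2 and 103 normalized counts in the CX against 16.9, 17.4 and 25.7 in the HC (log2 difference -2.27, SE 0.47, adjusted p = 0.0345). It was the single member called of 12 tested on the cortical neuron list, beside 2.31% of all genes called higher in the CX. The summed level of that list was 10444 and 10305 in the CX and 5071 to 7895 in the HC. Meis2, a TALE homeobox factor, had 789 and 757 in the CX against 229, 260 and 300 in the HC (-1.56, SE 0.20, adjusted p = 0.00219). The forebrain factors Emx2, Pax6 and Lhx2, named after their values were seen, were not called, with log2 differences of -0.23, -0.26 and -0.50. Zbtb20, a zinc finger factor needed for the hippocampal field, had 1928 to 2584 normalized counts in the HC and 1926 and 1802 in the CX and was not called (0.25).

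Gfap, the intermediate filament protein of astrocytes, was the single astrocyte marker called higher in the HC. It had 3672, 3976 and 3370 normalized counts in the HC and 889 and 1309 in the CX, with no overlap, a mean of 3673 ± 303 (SD, n = 3) against 1099 ± 297 (SD, n = 2). The log2 difference was 1.76 (SE 0.21, adjusted p = 0.00101), against a difference below 0 for the 14 other markers. Aldh1l1, whose promoter drives the transgene, had 542, 833 and 916 in the HC and 1317 and 1043 in the CX (-0.65, adjusted p = 0.249, not called). Acsbg1, an acyl-CoA synthetase, was called higher in the CX (-0.78, adjusted p = 0.157), and was not with the astrocyte markers set equal or without HC 1 (-0.55), HC 2 (-0.83), CX 1 (-0.69) or CX 2 (-0.87).

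The reactive astrocyte list, of which 27 members were tested, had a median log2 difference of 0.71, with 21 members above 0. Of the 27, 3 were called higher in the HC and 0 higher in the CX, beside 3.22% and 2.31% of all genes. C4b, a complement component, had 920, 597 and 419 normalized counts in the HC and 142 and 218 in the CX (1.80, SE 0.32, adjusted p = 0.0149). Its paralog C4a is nearly identical, so that reads of these genes may be split by the counting. Osmr, the oncostatin M receptor, had 395, 290 and 248 in the HC and 95.5 and 215 in the CX (1.09, adjusted p = 0.166), and its difference fell to 0.51 without CX 1. Stat3, a transcription factor of the reactive response, did not pass, at 530, 501 and 606 against 445 and 672.

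Promoters of Dmrt3 and Gfap are shown because these genes of differing family shared the direction, the absence of overlap and a place above every BS library. The sequences run from 250 bases before to 50 after the start in RefSeq (GRCm38.p6). They lie at chr19:25610287-25610586 on the plus strand for Dmrt3 and chr11:102897151-102897450 on the minus strand for Gfap. The GENCODE genes start elsewhere. Dmrt3 starts at 25610301, inside its window and near the first base shown, and Gfap at 102900912, outside its window. Capitals mark TTGGCA or its reverse complement TGCCAA, a nuclear factor I half-site searched on both strands, with 1 match in Dmrt3 at base 9 and 0 in Gfap.
Dmrt3: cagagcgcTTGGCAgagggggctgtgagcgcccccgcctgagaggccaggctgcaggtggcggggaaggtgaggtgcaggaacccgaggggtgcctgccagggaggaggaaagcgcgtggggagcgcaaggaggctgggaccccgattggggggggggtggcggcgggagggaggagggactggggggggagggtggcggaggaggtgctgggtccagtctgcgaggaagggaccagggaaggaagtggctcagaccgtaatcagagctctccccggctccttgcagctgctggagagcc
Gfap: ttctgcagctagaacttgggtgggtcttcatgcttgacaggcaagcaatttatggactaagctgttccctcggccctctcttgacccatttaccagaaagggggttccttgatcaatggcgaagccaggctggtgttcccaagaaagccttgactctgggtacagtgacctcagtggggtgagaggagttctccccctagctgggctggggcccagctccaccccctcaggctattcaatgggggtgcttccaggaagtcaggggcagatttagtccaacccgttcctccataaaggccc
The motif stood in 54 of the 312 promoters found for genes higher in the HC (17.3%) and in 37 of the 206 found for genes higher in the CX (18.0%), beside 13.8% of the 9706 found for genes tested and 16.1% of all 27025 genes in the table. The nuclear factor I genes themselves were not called. Nfia had 4461, 7319 and 6538 normalized counts in the HC and 6553 and 6952 in the CX (-0.18, adjusted p = 0.810). Nfib had 2272, 2958 and 3023 against 2881 and 3039 (-0.12), and Nfix 1958, 2296 and 1900 against 2363 and 2447 (-0.23).

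Levels in the BS were used to sort the genes higher in the HC, since the BS libraries held choroid plexus transcripts at levels that overlapped those of the HC. In 24 of the 410 (5.85%) every HC library lay above every BS library, as it did in 9.29% of all genes tested, and among the 294 genes higher in the CX the same held for every CX library in 220 (74.8%), beside 19.7% of all genes tested. These 24 included Dmrt3, Hopx, Gfap, C4b and Osmr. Cald1 (caldesmon, an actin-binding protein) had 1183, 788 and 602 in the HC, beside 246 and 259 in the CX and a BS mean of 466 (1.70, SE 0.26, adjusted p = 0.00640). Gabra5, the GABA-A receptor subunit best known from the hippocampus, had 98.7, 81.3 and 51.0 against 13.8 and 16.9 (2.21, SE 0.48, adjusted p = 0.0444). With adjusted p below 0.05, a call in every fit that left out 1 library, in edgeR and DESeq2 and with astrocyte markers set equal, 7 of the 24 remained, namely Dmrt3, Hopx, Gfap, C4b, Cald1, Gabra5 and the unannotated transcript E330013P04Rik. The astrocyte marker condition took out no HC call, as all 410 stood with that scaling, whereas 66 of the 294 CX calls did. This selection and the naming of its members were made after their values were seen. OB levels took no part in it. The OB mean was above the HC mean for C4b (772 against 645) and Gabra5 (108 against 77.0). It was below the HC mean for Gfap (3506 against 3673), Cald1 (530 against 858) and Hopx (1059 against 3014). For Dmrt3 (0 against 52.3) and E330013P04Rik (6.29 against 89.9) it was also below.

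Neurod6, a bHLH factor of pyramidal neurons that was among the 24 as well, had 63.1, 75.8 and 29.7 normalized counts in the HC and 5.03 and 16.9 in the CX (2.36, adjusted p = 0.120), and its call was lost without HC 1, HC 2 or CX 1, where the difference was 2.23, 2.10 and 1.58. On the dentate granule and pyramidal neuron list 3 of 11 tested were higher in the HC, beside 3.22% of all genes. The others were Dsp (desmoplakin, 3.60, adjusted p = 0.00648, with a BS mean of 153) and Prox1, a homeobox factor of dentate granule cells. Prox1 had 188, 204 and 141 against 91.7 and 72.1 (1.10, adjusted p = 0.0991), and its call was lost without HC 1, HC 2 or CX 2 (1.05, 0.99 and 0.93). The summed level of that list was 744 to 1143 in the HC and 832 and 814 in the CX, which overlapped, and the general neuronal list summed to 7536 to 12556 in the HC and 11933 and 14097 in the CX. On the latter list 19 of 23 members tested lay below 0, with a median of -0.64 (-0.29 with astrocyte markers set equal), while Gap43 was called higher in the CX and Neurod6 higher in the HC. Their part in these results was not tested. Thbs4, a thrombospondin that astrocytes of the subventricular zone make, had 185, 300 and 127 against 41.5 and 99.7 and a mean of 2.10 in the BS (1.56, adjusted p = 0.114), with the call lost without HC 2 (1.24) or CX 1 (0.94).

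**Figure D2:**
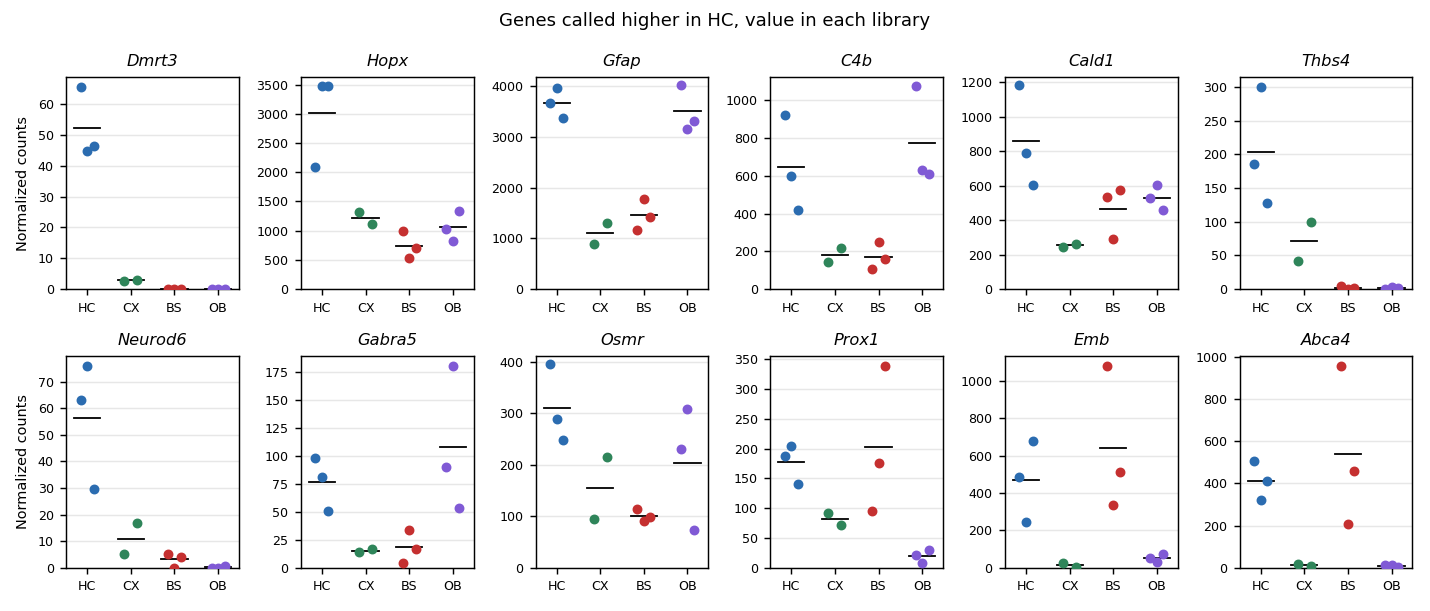
Normalized counts of 12 genes called higher in the HC in each library of the HC, CX, BS and OB, with a bar at the mean of each region and a linear axis from 0. The HC points lie above the CX points in every panel, the BS points of Dmrt3 lie at 0, and those of Emb and Abca4 reach or pass the HC points.

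Of all lists the choroid plexus list had the largest share of members called. Of 38 members tested 35 were called higher in the HC and 0 in the CX, beside 3.22% of all genes, with a median log2 difference of 4.21. Igfbp2, Lmx1a and Wfikkn2 were the members not called, at 0.36, 1.79 and 2.51. The list summed to 237676, 114322 and 217394 normalized counts in HC 1 to HC 3, to 10239 and 4698 in CX 1 and CX 2, and to 396773, 84091 and 196506 in BS 1 to BS 3. The 3 OB libraries lay between 4484 and 5155. No member tested lay above every BS library in the HC. Of its members in the files 2 were at 0 in both CX libraries, and 2 at 0 in all HC libraries.

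Ttr, the thyroxine and retinol-binding protein carrier secreted by the choroid plexus, had 132046, 65549 and 124536 normalized counts in the HC and 4204 and 1323 in the CX. HC 2 was the lowest HC library and still far above both CX libraries (log2 difference 5.44, SE 0.47, adjusted p = 0.000147). Enpp2 (autotaxin), the second by level, had 73682, 33929 and 64728 against 3346 and 1619 (4.55, SE 0.39, adjusted p = 0.000140). Cldn2, a claudin of leaky epithelia, had 470, 207 and 439 against 30.2 and 1.53 (5.30), and Folr1, the folate receptor, 364, 141 and 274 against 8.79 and 3.07 (5.26). Htr2c, the serotonin receptor abundant in this epithelium, followed the same order at 919, 363 and 824 against 44.0 and 64.4 (3.59). Otx2, a homeobox factor of the choroid plexus, had 830, 448 and 671 against 107 and 96.6 (2.62).

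Ependymal genes were lower in level, with 13 of 26 tested called higher in the HC and 0 higher in the CX, beside 3.22% and 2.31% of all genes. Of the 26, 24 lay above 0 and 2 below, with a median log2 difference of 2.06. Their sum was 1441, 862 and 1313 in the HC, beside 216 and 319 in the CX. The BS libraries summed to between 962 and 3502. Dnah9, an axonemal dynein chain, had 78.7, 49.3 and 59.1 against 2.51 and 1.53 (4.38, SE 0.65, adjusted p = 0.00546), and Drc7, of the dynein regulatory complex, 304, 122 and 223 against 30.2 and 29.1 (2.73, adjusted p = 0.00442). Foxj1, the master factor of motile cilia, named after its value was seen, had 70.6, 63.9 and 65.3 against 7.54 and 33.7 (1.97, adjusted p = 0.148). Of the 13 calls 5 stood in every fit with 1 library left out, against 30 of the 35 choroid plexus calls.

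**Figure D3:**
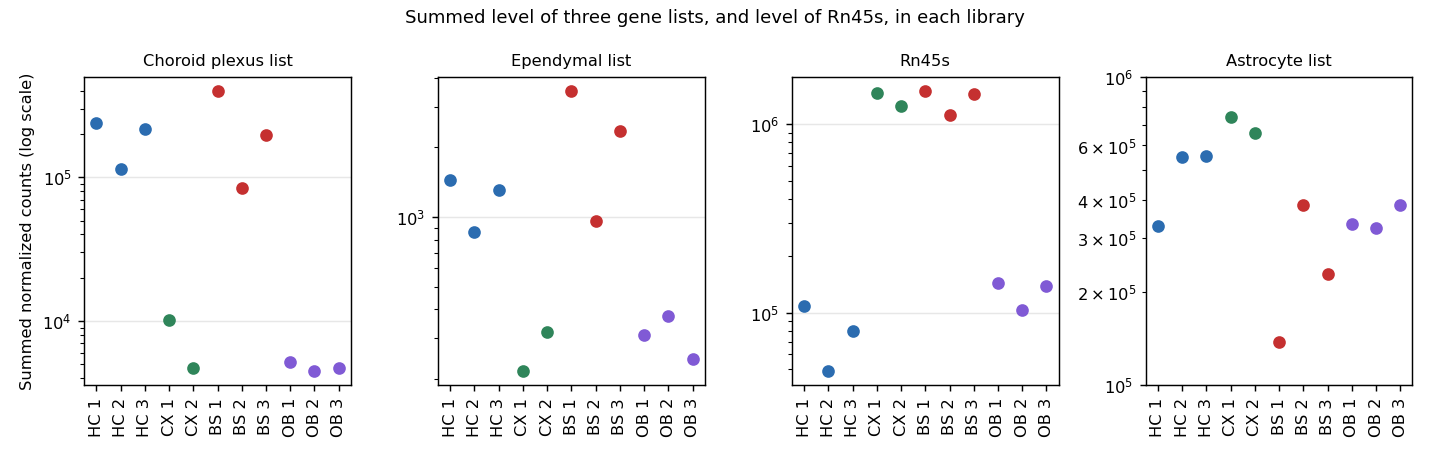
Summed normalized counts (log axis) of the choroid plexus, ependymal and astrocyte lists, and the level of Rn45s, in each of the 11 libraries. The HC and BS libraries lie above the CX and OB libraries in the choroid plexus and ependymal panels, whereas Rn45s is high in the CX and BS and low in the HC and OB.

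Of the calls toward the HC outside the lists of other cell types that had a mean of at least 50 and no overlap, the 15 of largest difference had a BS mean above the CX mean. Not one of these 15 lay above every BS library in the HC, HC 2 was the lowest HC library in 13 of them, and all 15 had an adjusted p below 0.05. At a lower mean Rrh, a retinal opsin named after its values were seen, had 54.3, 6.39 and 43.3 normalized counts in the HC against 1.26 and 0 in the CX and lay above every BS library, of which the highest had 6.31 (4.13, adjusted p = 0.107), with its call lost without CX 2 (3.54). Emb (embigin, a chaperone of monocarboxylate transporters) had 487, 244 and 679 normalized counts in the HC, beside 25.1 and 4.60 in the CX, with a BS mean of 642 (5.16, SE 0.60, adjusted p = 0.000938). Abca4, a transporter of retinoid conjugates, had 506, 322 and 410 against 17.6 and 7.67, with a BS mean of 540 (5.00, SE 0.38, adjusted p = 8.82e-05). Atp2b3, a plasma membrane calcium pump, had 2269, 1152 and 1802 against 170 and 55.2, with a BS mean of 1995 (4.10). The others were Cldn1, Oca2, Sema3b, Ccbe1, Serpinb1b, Tc2n, Col8a2, Pcolce, Slc29a4, Gpx8, Spint2 and Fap, with log2 differences of 3.81 to 5.11. The part of choroid plexus RNA in these 15 was not tested.

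The sum of the astrocyte markers was also higher in the CX, and the neuronal list leaned to the CX as well (median -0.64), which holds beside every gene and list toward the CX below. The part of either in these results was not tested. Chrdl1, a secreted BMP antagonist that astrocytes release and that matures synapses, lies on the X chromosome at chrX:143285674-143394262, minus strand. It had 2618 and 2277 normalized counts in the CX against 262, 406 and 346 in the HC, where the CX mean of 2448 ± 241 (SD, n = 2) was 7.24 times the HC mean. The BS mean was 5.19 and the OB mean 2903. The log2 difference was -2.87 (SE 0.22, adjusted p = 8.82e-05), and the call stood with astrocyte markers set equal and without any 1 library. It was 1 of 7 members higher in the CX, and 4 higher in the HC, among 47 synapse-forming, phagocytic and guidance genes tested (median -0.36), beside 2.31% and 3.22% of all genes. With astrocyte markers set equal these counts were 1 and 6.

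Other members of that list toward the CX were Efna5 (an ephrin, -1.82), Ephb1 (an ephrin receptor, -0.97) and Megf10 (an engulfment receptor, -0.95), with adjusted p-values of 0.115, 0.0622 and 0.101. All of these calls were lost with astrocyte markers set equal and without CX 1 (-1.46, -0.75 and -0.98), and that of Megf10 also without CX 2 (-0.92). Slit2, a repulsive guidance cue, led those toward the HC at 247, 216 and 310 against 52.8 and 18.4, with a BS mean of 711 (2.99, SE 0.41, adjusted p = 0.00331). Thbs1 (1.84), Thbs4 (1.56) and Sparc (0.68), secreted proteins that act on synapses, followed, and none of them had an adjusted p below 0.05. The Thbs1 call was lost without HC 1 (1.40), HC 2 (1.88) or CX 1 (1.67), and that of Sparc without HC 2 (0.60), HC 3 (0.69), CX 1 (0.54) or CX 2 (0.83).

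By the same limits on mean and overlap, 15 genes had the largest differences toward the CX, of which 10 had an adjusted p below 0.05, 10 lay above every BS library and 14 stood with astrocyte markers set equal. Car8, a carbonic anhydrase-like protein that binds the IP3 receptor, had 949 and 894 normalized counts in the CX against 98.1, 127 and 156 in the HC (-2.87, SE 0.24, adjusted p = 0.000140). Shisa9, an auxiliary subunit of AMPA receptors, had 1197 and 926 against 98.1, 123 and 161 (-3.07, SE 0.25, adjusted p = 0.000140), with means of 866 in the BS and 4811 in the OB. Rpe65, the retinoid isomerase of the visual cycle, had 209 in both CX libraries and 23.7, 14.6 and 33.0 in the HC (-3.15, SE 0.44, adjusted p = 0.00336). Crym, a thyroid hormone-binding crystallin, had 96.7 and 150 against 12.5, 11.9 and 26.4 (-2.85, adjusted p = 0.0201), and 0 in all BS libraries. Pdzph1 (-2.76) and Rgs6 (-2.66), a regulator of G protein signalling, had adjusted p-values of 0.00671 and 0.0145. Penk, Scel, Scube1, A930012L18Rik and Ipcef1 missed that threshold, and Penk, the enkephalin precursor, had 28.9 and 101 in the CX against 9.37, 3.65 and 0.73 in the HC, and was not called with a limit of 5 RPM.

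A set of 30 genes higher in the CX met the same conditions as the 7 genes above, again picked after their values were seen. Mir6236, which followed the ribosomal RNA precursor across the regions, is among the 30, and so is Gm20594, which followed it less closely (both below). Gfra1, the GDNF co-receptor, had 1136 and 1124 normalized counts in the CX against 211, 284 and 285 in the HC (-2.13, SE 0.21, adjusted p = 0.000269). Camk2n1, an inhibitor of CaM kinase II, had 5365 and 4974 against 2229, 1509 and 1662 (-1.54, SE 0.21, adjusted p = 0.00290). Rgs7, a regulator of G protein signalling, had 536 and 469 against 114, 142 and 176 (-1.82, SE 0.25, adjusted p = 0.00310). Secreted growth factors in the set were Ptn (pleiotrophin), at 8678 and 8157 against 2266, 3889 and 3662 (-1.40), and Hgf (hepatocyte growth factor), at 318 and 324 against 98.1, 126 and 152 (-1.37). Lama3, a laminin chain, had 275 and 241 against 114, 68.5 and 63.8 (-1.69). Lypd6 (-1.62), Eogt (-1.5), Fjx1 (-1.47), Ptchd2 (-1.45), Dner (-1.34), Ece2 (-1.34), Slc22a23 (-1.31), Arpp21 (-1.26), Slc13a5 (-1.21) and Nupr1 (-2.63) also belonged to it.

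Receptors of GABA differed by subunit. Gabbr2 had 1538 and 1671 normalized counts in the CX against 481, 355 and 313 in the HC (-2.09, SE 0.21, adjusted p = 0.000370), and its call stood without any 1 library. Its partner Gabbr1, with which it forms the GABA-B receptor, had 4909 and 5348 against 1951, 2807 and 3309 (-0.96, adjusted p = 0.0679), with the call lost without CX 1 (-1.03) or CX 2 (-0.90). Gabrg1, a GABA-A subunit, was also called higher in the CX (-0.77, adjusted p = 0.130), a call lost with astrocyte markers set equal and without HC 1 (-0.56), CX 1 (-0.77) or CX 2 (-0.78), and Gabra5 higher in the HC (above). The GABA list of 22 tested genes thus had 3 called higher in the CX and 1 in the HC, with a median of -0.57, beside 2.31% and 3.22% of all genes, and 2 and 1 with astrocyte markers set equal.

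Glutamate receptors had 3 of 22 tested higher in the CX and 1 higher in the HC, beside 2.31% and 3.22% of all genes, with a median of -0.01. With astrocyte markers set equal the balance turned, to 1 higher in the CX and 2 in the HC, with a median of 0.33 where that of all genes was 0.34. Grm3, the main metabotropic glutamate receptor of adult astrocytes, had 5847 and 5288 against 1933, 3017 and 3020 (-1.10, SE 0.23, adjusted p = 0.0382), and its call was lost without CX 1 (-1.02). Grin2c, an NMDA receptor subunit, was called higher in the CX (-0.65, adjusted p = 0.171) and was not with astrocyte markers set equal or without HC 1 (-0.56), HC 2 (-0.58), CX 1 (-0.67) or CX 2 (-0.63). The astrocyte glutamate transporter Slc1a2 had 225027 to 389770 in the HC and 541892 and 472464 in the CX and was not called (-0.64, SE 0.75). In the list of uptake, potassium and water handling 3 of 31 tested were higher in the CX and 2 in the HC, beside 2.31% and 3.22% of all genes. With astrocyte markers set equal these counts were 1 and 3. Kcnk1 (a potassium channel, -1.44, adjusted p = 0.0188), Slc38a3 (a glutamine transporter, -0.90, adjusted p = 0.0446, lost without CX 2 at -0.81) and Atp1b2 (a sodium pump subunit, -0.83, adjusted p = 0.179) were higher in the CX. Kcnk1 alone of them stood with astrocyte markers set equal, and the Atp1b2 call was also lost without HC 2 (-0.84), CX 1 (-0.76) or CX 2 (-0.90). Slc12a2 (a chloride cotransporter, 1.24) and Trpv4 (a cation channel, 3.19) were higher in the HC, and Trpv4 is also on the choroid plexus list. Neither lay above every BS library, with BS means of 1387 and 121 beside HC means of 1116 and 121.

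**Figure D4:**
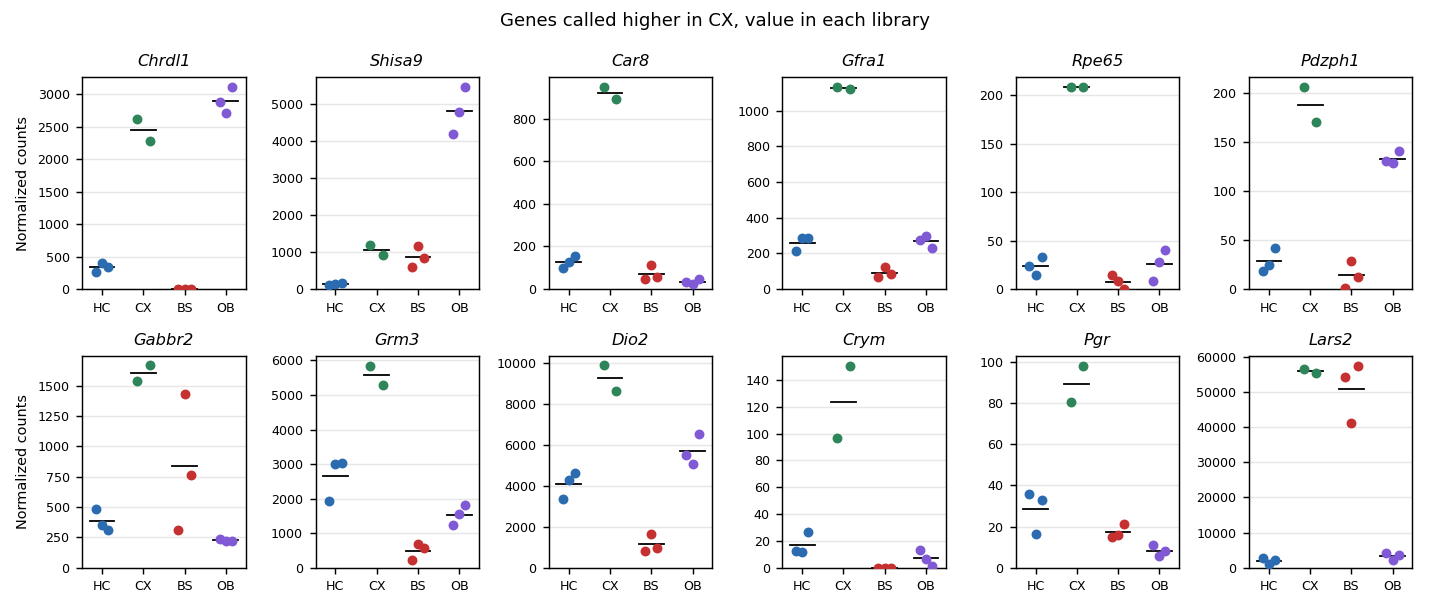
Normalized counts of 12 genes called higher in the CX in each library of the HC, CX, BS and OB, with a bar at the mean of each region and a linear axis from 0. The CX points lie above the HC points in every panel, the BS points of Chrdl1 and Crym lie at or near 0, and those of Lars2 lie with the CX points.

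Cholesterol synthesis and lipid export had 8 of 30 tested genes higher in the CX and 0 higher in the HC, beside 2.31% and 3.22% of all genes. The median log2 difference was -0.54, close to the -0.51 of the astrocyte markers. With the median of these markers set equal none of the 30 was called. The list median was then -0.19, beside -0.16 for the markers themselves and 0.34 for all genes. Cyp51 (lanosterol demethylase) had 1471 and 1516 normalized counts in the CX against 633, 902 and 732 in the HC (-1.0, SE 0.20, adjusted p = 0.0263) and was the single member that stood without any 1 library. Hsd17b7 (-1.04) and Insig1 (-0.91), which act in or regulate the pathway, had adjusted p-values of 0.114 and 0.0605. Both calls were lost without CX 1 (-1.21 and -0.82), and that of Hsd17b7 also without HC 1 (-0.84), HC 2 (-1.05) or CX 2 (-0.88). The carriers Apoe (-0.36) and Clu (-0.46) did not pass.

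Matrix genes of the neuropil were 5 of 19 higher in the CX and 1 higher in the HC (median -0.48), beside 2.31% and 3.22% of all genes. With astrocyte markers set equal these counts were 1 and 2. Bcan (brevican) had 3911 and 3778 against 1470, 2166 and 2265 (-0.99, SE 0.22, adjusted p = 0.0456), with the call lost without CX 1 (-0.97) or CX 2 (-1.02). Ncan (neurocan) had 23389 and 18842 against 5932, 13312 and 10837 (-1.14, adjusted p = 0.130), with the call lost without CX 1 (-0.99) or CX 2 (-1.30) and with astrocyte markers set equal. Adamts4, an aggrecanase that cuts brevican, went the other way at 108, 113 and 51.4 in the HC against 28.9 and 32.2 (1.46, adjusted p = 0.155). Its BS mean was 99.2, and its call was lost without HC 1 (1.30), HC 2 (1.26), CX 1 (1.39) or CX 2 (1.54).

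In thyroid hormone and retinoid handling 4 of 23 tested genes were higher in the HC and 3 higher in the CX, beside 3.22% and 2.31% of all genes. With astrocyte markers set equal these counts were 4 and 2. Dio2, the deiodinase that activates thyroxine, had 9898 and 8632 normalized counts in the CX against 3344, 4306 and 4623 in the HC (-1.19, SE 0.21, adjusted p = 0.0172), and stood with astrocyte markers set equal. Crym (above) and the retinoic acid receptor Rara (-1.45, adjusted p = 0.118) were higher in the CX too, and the Rara call was lost with astrocyte markers set equal and without CX 1 (-1.37) or CX 2 (-1.54). Those higher in the HC included Ttr, the retinol dehydrogenase Rdh5 (2.42, adjusted p = 0.00432) and Stra6, the receptor of the retinol carrier, at 159, 75.8 and 75.6 against 15.1 and 13.8 (2.67, adjusted p = 0.0161). Ttr and Rdh5 are also on the choroid plexus list, and none of the 4 lay above every BS library.

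The Wnt list had 3 of 35 tested genes higher in the CX, beside 2.31% of all genes, and 0 in the HC, and 2 and 1 with astrocyte markers set equal. Dkk3, a secreted dickkopf protein, had 4166 and 4138 against 1372, 2020 and 2132 (-1.20, SE 0.22, adjusted p = 0.0176), and Sfrp1, a secreted frizzled-related protein, 1591 and 1268 against 445, 548 and 352 (-1.68, SE 0.22, adjusted p = 0.00249). Fzd2, a Wnt receptor, had a log2 difference of -1.06 (adjusted p = 0.0460) and lost its call without CX 2 (-1.05) and with astrocyte markers set equal. Ctnnb1 (beta-catenin) did not pass, at 2495, 2860 and 2622 against 2406 and 2748. Pgr, the progesterone receptor, was the single call among 27 NFI, Sox and other astrocyte transcription factors, beside 2.31% of all genes called higher in the CX. It had 80.4 and 98.1 in the CX against 35.6, 16.4 and 33.0 in the HC (-1.69, SE 0.48, adjusted p = 0.124), its call was lost without HC 2 (-1.35), CX 1 (-1.83) or CX 2 (-1.54), and it was not called with astrocyte markers set equal. Stat4 was below the expression filter, at 8.75, 1.83 and 0 in the HC and 1.26 and 0 in the CX.

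Among entries toward the CX, Lars2 and Mir6236 followed Rn45s across the regions, and Gm20594 did so less closely. Rn45s had 1456620 and 1252290 normalized counts in the CX against 108900, 48928 and 79825 in the HC, with means of 1354740 in the BS and 128032 in the OB (-4.17, SE 0.65, adjusted p = 0.00648), and its call was lost without HC 2 (-3.86). Lars2, the mitochondrial leucyl-tRNA synthetase gene, had 56616 and 55298 against 2719, 1138 and 2143, with means of 50932 in the BS and 3337 in the OB (-4.90, SE 0.32, adjusted p = 7.38e-05). Mir6236 had 3356 and 3507 against 146, 46.6 and 82.9, with means of 2574 in the BS and 145 in the OB (-5.36, SE 0.37, adjusted p = 7.38e-05). These are reads of long RNA fragments over the entry and no measure of the mature miRNA, whose RefSeq sequence at chr9:110281353-110281371 (GRCm38.p6, plus strand) is given, with bases 2 to 8 in capitals, because this entry had the largest difference.
mmu-miR-6236: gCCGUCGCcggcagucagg
Gm20594 had 315 and 419 in the CX against 144, 45.7 and 66.4 in the HC (-2.24, adjusted p = 0.0209), with means of 224 in the BS and 107 in the OB. It had 137 in BS 3, below HC 1 and OB 1 (146). Its transcript of 449 bases aligned to the mitochondrial 16S ribosomal RNA gene mt-Rnr2 at 88.4% identity over 439 columns. Whether other CX calls moved with the ribosomal share was not tested, and with 2 CX libraries, both high in Rn45s, that share and the region cannot be told apart.

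Lists of other cell types had smaller median differences than the choroid plexus and ependymal lists. Oligodendrocyte (16 tested), oligodendrocyte precursor (10), microglial (20), endothelial and mural (22) and erythrocyte (2) lists had 0 members called in either direction. Of all genes 3.22% were called higher in the HC and 2.31% in the CX, so that few calls would fall in lists this short. The medians were 0.54, -0.27, 0.53, 0.39 and -0.15. With astrocyte markers set equal they were 0.89, 0.07, 0.87, 0.73 and 0.20, beside 0.34 for all genes. In that scaling 1 oligodendrocyte and 1 microglial gene were called higher in the HC. Sums of the oligodendrocyte list were 19894 to 43543 in the HC and 21830 and 21157 in the CX, and those of the microglial list 3092 to 9454 and 3952 and 4796. HC 3 was the lowest of the 5 libraries on both lists and HC 1 and HC 2 the highest. All 20 microglial genes tested had a difference above 0, while no one of them was called with the deposited scaling. Of 14 leptomeningeal genes tested 2 were called higher in the HC and 1 higher in the CX, beside 3.22% and 2.31% of all genes. Igf2 (insulin-like growth factor, 2.69, adjusted p = 0.000247) and Ogn (osteoglycin, 2.29) were those toward the HC. Their BS means of 3316 and 215 were above their HC means of 2472 and 177. Slc13a3 (a dicarboxylate transporter, -1.33) was higher in the CX. Immediate early and dissociation genes had 0 of 29 called in either direction, beside 3.22% and 2.31% of all genes, and a median of 0.08. Fos had 1191, 293 and 44.0 in the HC against 172 and 228 in the CX.

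Among other pathways, glycolysis, lactate and glycogen had 2 of 28 higher in the CX (among them Gyg, of glycogen synthesis), FGF, Notch, hedgehog and BMP signalling 2 of 51 (Fgf13 and Nrarp), and metallothioneins and glutathione defence 1 of 23 (Slc30a10, a manganese transporter), beside 2.31% of all genes. None of these 5 was called higher in the CX with astrocyte markers set equal. Of 18 circadian genes tested Clock was higher in the HC (0.84, adjusted p = 0.0445, lost without CX 1 at 0.80), beside 3.22% of all genes. Dbp (-1.48) and Bhlhe41 (-0.69) were higher in the CX, beside 2.31%. With astrocyte markers set equal neither CX call stood, and both were lost without CX 1 (-1.64 and -0.78) or CX 2 (-1.31 and -0.60), that of Dbp also without HC 1 (-1.31) or HC 3 (-1.41). Of 19 adult neural stem cell and neuroblast genes tested Thbs4, Hopx and Prox1 were higher in the HC, beside 3.22% of all genes, and Egfr (-0.98) and Ccnd2 (-0.80) higher in the CX, beside 2.31%. Both of these CX calls ended with astrocyte markers set equal and without CX 1 (-0.90 and -0.90), and that of Ccnd2 also without HC 2 (-0.81) or CX 2 (-0.69). The list of monoamine, acetylcholine, purine and peptide receptors had 1 of 32 in each direction, close to the 3.22% and 2.31% of all genes. These were Htr2c (above) and Gpr37l1, an astrocyte-enriched receptor (-1.02), whose call was lost with astrocyte markers set equal and without CX 1 (-0.94) or CX 2 (-1.10).

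**Figure D5:**
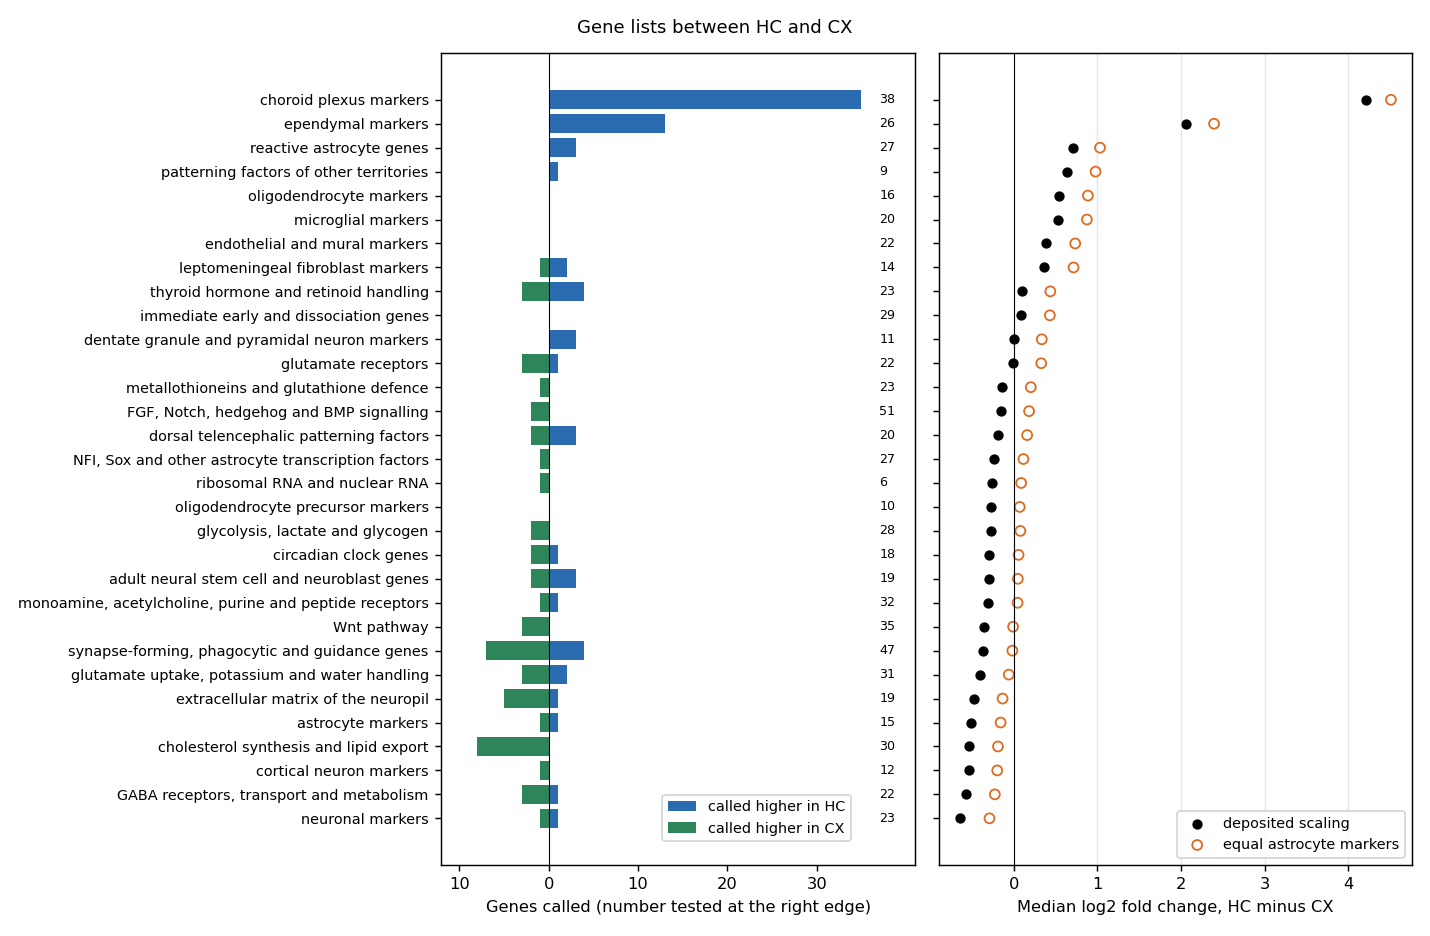
Left, for each gene list, the number of members called higher in the HC (blue, to the right of 0) and in the CX (green, to the left), with the number tested at the right edge. Right, the median log2 difference (HC minus CX) of each list. Filled points have the deposited scaling, and open points have the median of the astrocyte markers set equal in every library. With the deposited scaling the choroid plexus list stands at 4.21 and the astrocyte list at -0.51.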

How the data were processed

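The authors mapped reads to mm10 with STAR 2.5.0a, counted them on UCSC transcripts and normalized with DESeq2 1.20.0. The values they deposited are a signal, the read count of each of 24421 entries over 1 size factor per library. Whether strand was used is not given in the sources used here, so that overlapping and antisense genes cannot be told apart. In each library the reads were recovered, since 100% of values above 0 came out whole (tolerance 0.01) when divided by the worth of 1 read. Entries garbled into dates (27) are not named.

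Genes entered after filterByExpr of edgeR 4.0.16 on these reads. The 3 HC and 2 CX libraries were compared with limma 3.58.1 (R 4.3.3, mean-variance trend, two-sided) on log2(value + 1), with fold changes on that scale, which understates the change of low genes, and with Benjamini-Hochberg adjustment over the 12745 genes. Alternatives were edgeR and DESeq2 1.42.0 on the reads, other pseudocounts, filters, scalings and thresholds, a replicate block and each library left out. The members, the gene lists and the rule for named genes were chosen with earlier results of these data known. Named were the 15 largest non-overlapping calls in each direction with a mean of at least 50 outside the lists of other cell types, at most 4 called members per list and direction with the 2 of highest level, and 7 genes the study names. Some genes that met the rule are not reported here. The steps were tested on simulated data. Coordinates are from GENCODE M21 and sequences from RefSeq tables. The alignment used blastn 2.17.0, and Python 3.11.15 with pandas 2.3.3, numpy 2.4.6 and matplotlib 3.10.9 was used for tables and plots. Depth limits low genes, where 3 reads correspond to 1.10 to 2.74 normalized counts in the HC and 3.77 or 4.60 in the CX, for counting error only.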

Additional observations from a re-analysis of the deposited data

How the results depend on the processing

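The 704 calls, 410 higher in the HC and 294 in the CX, kept within 1.5 times of these counts with edgeR (652 or 657), DESeq2 (838), pseudocounts of 0.25 and 5 (690 and 714), no filter (780), all 11 libraries (650) and scalings by TMM or by genes outside the lists (685 and 696). Without the mean-variance trend 138 genes were higher in the CX (73.9% of calls toward the HC, against 58.2%). An adjusted p below 0.05 left 236 (172 HC, 64 CX, 72.9%), a fold above 2.5 left 400 (90 CX, 77.5%), edgeR with an adjusted p 197 (150 HC, 47 CX, 76.1%), and DESeq2 with an adjusted p 522 (192 CX). Scaling by astrocyte markers gave 731 HC and 66 CX (91.7%), and moved the medians of 16 of 31 lists by more than the spread between replicates. Calls that also lay above every BS library numbered 244, of which 24 were higher in the HC, so that the majority turned toward the CX (9.84% HC). A limit of 5 RPM in place of 5 normalized counts gave 672 (381 HC, 291 CX, 56.7%). The settings from edgeR with an adjusted p on were chosen after seeing the data. Left-out libraries gave 386 to 887 calls, 288 to 496 HC, 82 to 391 CX and 51.9% to 80.3% HC. The ratio of distances between and within regions, 1.19, was 1.41 over the 500 most variable genes and 1.15 to 1.27 with a library left out. The causes were not tested.

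With the replicate number as a block, over numbers 1 and 2 that both regions have, 1091 genes were called (649 HC, 442 CX). The labels do not say whether a number pairs libraries. The correlation of deviations between the regions was -0.168 for number 1 and 0.0538 for number 2. With 2 CX libraries, the CX deviations of both numbers are the same values with the sign turned. These correlations therefore cannot show whether libraries are paired, and pairing is not known. Of the settings run on single named genes, 771 with a left-out library kept the call or its absence, 158 lost a call and 14 gained one, and of the others 2689 kept it, 314 lost and 21 gained one, with no change of direction in a called gene. A single read was worth more normalized counts in both CX libraries than in any HC library, and the CX had 2 libraries.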
